A study of Rattus norvegicus with 22 samples.

Results

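The genes described here were TGF-β1 (rat Tgfb1), SMAD-2 (Smad2) and SMAD-3 (Smad3), 3 of the 22 target genes quantified by TaqMan qRT-PCR in rat calcaneal tendon (CT). They were chosen by name, as the ligand of the TGF-β pathway and the SMAD proteins that carry its signal. All animals were adult male Wistar rats, and each animal was a biological replicate. The C group held 5 animals with no muscle injury, and the 3D, 14D and 28D groups held 5, 6 and 6 animals whose CT was taken 3, 14 and 28 days after cryo-injury of the gastrocnemius muscle. The tendon itself was not lesioned, no sham-operated group was labelled, and all animals were of one sex. The study asked how the tendon responds to injury of the muscle it is attached to. Of 66 values of the 3 genes, 64 were taken as measured. The others, TGF-β1 in replicate 4 of C and in replicate 3 of 3D, matched the mean of their group mates within 1e-06 and were left out.

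TGF-β1 is a secreted growth factor that is stored in the matrix in a latent form. Once active, it binds a pair of receptor kinases, which phosphorylate SMAD-2 and SMAD-3, and these join SMAD4 and enter the nucleus to regulate transcription. In tendon the pathway is known for its part in tendon formation, through scleraxis, and in collagen synthesis and scarring. The measurements were of mRNA and did not cover the phosphorylation that activates the SMAD proteins.

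The sequence just before an annotated transcription start is shown for each gene. Any relation of these sequences to the mRNA levels or to the covariation described below was not tested. The sequences are RefSeq, build GRCr8, 250 bases ending at the base before the start, read in the direction of transcription. Capitals mark the GC box, GGGCGG or its reverse complement CCGCCC, the motif that SP1 family factors bind. The first is at chr1:90324062-90324311 on the plus strand, the second at chr18:72125094-72125343 on the plus strand and the third at chr8:73132325-73132574 on the minus strand.
Tgfb1: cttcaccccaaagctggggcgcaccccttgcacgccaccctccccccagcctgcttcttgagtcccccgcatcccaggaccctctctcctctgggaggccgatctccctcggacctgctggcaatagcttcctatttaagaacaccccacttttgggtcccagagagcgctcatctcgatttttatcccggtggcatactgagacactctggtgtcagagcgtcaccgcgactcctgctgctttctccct
Smad2: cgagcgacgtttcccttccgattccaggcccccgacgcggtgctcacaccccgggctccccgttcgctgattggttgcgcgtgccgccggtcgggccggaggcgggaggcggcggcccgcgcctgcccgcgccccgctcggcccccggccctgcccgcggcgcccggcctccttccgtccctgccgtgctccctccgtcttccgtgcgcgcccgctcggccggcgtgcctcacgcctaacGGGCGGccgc
Smad3: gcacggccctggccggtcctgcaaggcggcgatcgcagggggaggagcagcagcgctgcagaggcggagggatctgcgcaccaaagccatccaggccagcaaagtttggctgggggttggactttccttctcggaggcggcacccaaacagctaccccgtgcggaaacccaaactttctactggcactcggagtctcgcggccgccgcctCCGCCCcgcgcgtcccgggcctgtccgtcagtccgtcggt
GC content was 60% for Tgfb1, 79.6% for Smad2 and 68.4% for Smad3, against a median of 51.2% over 33469 promoters of the same length. The Smad2 and Smad3 windows held 1 GC box each and the Tgfb1 window held 0, and 30.5% of all promoters held at least 1. The window of a further annotated start of Smad2 had 82.8% GC and 5 GC boxes. It overlapped the end of the Smad2 window shown, and the GC box marked there is among the 5. Neither TATAAA nor CAGAC, the letters of the TATA box and of a SMAD binding element, was found in any of these windows on either strand, while 12.9% and 42.9% of all promoters held them. The motifs did not overlap, a match is a description of letters only, and binding was not measured.

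The value deposited for each gene and animal was the cycle threshold (Ct), the PCR cycle at which the probe signal crosses a fixed line, and the later it comes the less template there was. The ΔCt is the Ct minus that of RPLP0, a ribosomal protein used as reference. Log2 expression was minus ΔCt, with the mean of C set to 0, so that 1 unit is a 2-fold difference. The tendon markers TNMD, SCX, MKX and COL1A1 were all detected, TNMD in 22 animals at a Ct between 21.8 and 30.8 and SCX in 22 animals at 27.2 to 33.7. MKX was measured in 22 animals at 26.5 to 36.6 and COL1A1 in 20 at 24.4 to 35.04, each with 1 well above 35. IL-6, an inflammatory cytokine, was measured in 18 animals, in 10 of them at a Ct above 35. The panel held no defining markers of muscle, blood, immune, endothelial or fat cells, so the share of other cells was not measured. In whole tendon, fewer cells of a type and less mRNA per cell cannot be told apart. RPLP0 itself had a Ct of 27.3 ± 1.91 in C, 28.2 ± 2.37 in 3D, 27.1 ± 1.15 in 14D and 28.8 ± 1.28 in 28D (SD, n = 5, 5, 6 and 6), and 28D was 1.72 cycles later than 14D (exact permutation p = 0.0303, unadjusted), with an exact p above 0.05 in 8 of the 12 fits that left out 1 animal. Replicate 2 of 3D and replicate 4 of C stood apart with RPLP0 at 32.3 and 30.6, later than in all other animals. The values without this pair are given beside some of the results they move. Without replicate 4 of C, RPLP0 in 28D was 2.41 cycles later than in C (exact permutation p = 0.0143, unadjusted), against 1.57 with all animals (p = 0.134 by exact permutation).

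TGF-β1, the ligand, was tight in C and wide in 3D. Its log2 expression in C was -0.05, 0.02, -0.03 and 0.06, an SD of 0.05 over 4 animals. In 3D it was -0.33, -2.95, 0.02 and 0.15, in 14D it had a lowest value of -0.30, a median of 0.20 and a highest value of 0.71, and in 28D these were 0.26, 0.51 and 0.91. The 28D animals thus lay above every animal of C and of 3D, the 14D animals overlapped with all other groups, and a single 3D animal, replicate 2, lay far below the rest. The Ct of TGF-β1 in that animal was 38.5, past 35, where a Ct is less precise, and the SMAD-2 and SMAD-3 wells of the same animal, at 37.2 and 38.0, were the only other wells of these genes past 35. As a group mean TGF-β1 was 0.57 ± 0.27 in 28D (SD, n = 6), against 0.00 ± 0.05 in C (SD, n = 4) and -0.78 ± 1.47 in 3D (SD, n = 4).

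**Figure D1:**
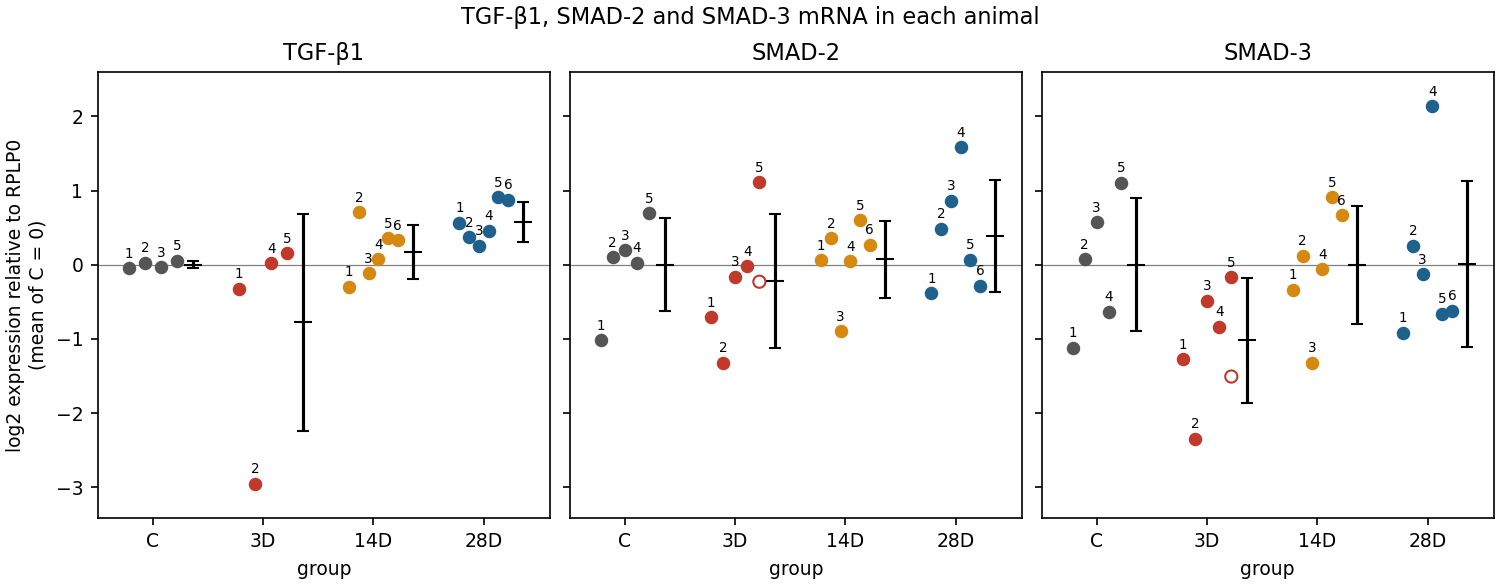
Log2 expression relative to RPLP0 (y axis, mean of C = 0) of TGF-β1, SMAD-2 and SMAD-3 in each animal of C, 3D, 14D and 28D, with replicate numbers over the points and mean ± SD as black bars. The open circle is replicate 5 of 3D recomputed with its own RPLP0 Ct. TGF-β1 spans -0.05 to 0.06 in C, while SMAD-3 spans -1.12 to 1.10 in the same group.

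SMAD-2, a carrier of the signal that is phosphorylated by the type I receptor, varied in all groups and its groups overlapped throughout. In C it was -1.02, 0.10, 0.20, 0.03 and 0.70, and in 3D -0.71, -1.32, -0.16, -0.02 and 1.11. In 14D the lowest, median and highest values were -0.90, 0.17 and 0.60, and in 28D they were -0.39, 0.28 and 1.58. Replicate 2 of 3D was the lowest animal of the series and replicate 4 of 28D the highest, for SMAD-2 as for SMAD-3.

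SMAD-3, the carrier whose DNA-binding form acts directly on target promoters, had its lowest group mean in 3D. It was -1.27, -2.35, -0.48, -0.83 and -0.17 in the 3D animals, all below the mean of C, while the C animals were at -1.12, 0.07, 0.57, -0.63 and 1.10. In 14D the lowest, median and highest values were -1.32, 0.03 and 0.91, and in 28D -0.92, -0.37 and 2.14. The group means were 0.01 in 28D and -0.00 in 14D, against 0 in C by construction, and 4 of 6 animals of 28D lay below the mean of C. Over all groups the SD within groups was 0.68 for TGF-β1, 0.71 for SMAD-2 and 0.93 for SMAD-3, the 4th, 7th and 13th smallest of the 22 genes.

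With limma over 22 genes and 6 pairs of groups, Benjamini-Hochberg adjusted over 132 tests, none of the 18 tests of the 3 genes passed at an adjusted p under 0.05, whereas 14 tests, or 10.6%, passed over the panel. Before adjustment, 1 of the 18 had a limma p under 0.05, TGF-β1 in 28D against 3D, beside 18.9% of all tests. Exact permutation p-values adjusted over the same 132 tests passed for none of the 18, with the lowest at 0.0786. No other gene of the panel passed by this measure either, and 0.0786 was also the lowest of all 132 tests. The nearest to the threshold was TGF-β1 in 28D against 3D, with a log2 difference of 1.35 ± 0.47 (SE), a 2.55-fold higher level, and an adjusted p of 0.0772. The 28D and 3D animals did not overlap, as held for 27.3% of genes in that comparison. The unadjusted exact permutation p of 0.00476 was the smallest that 6 against 4 animals allow, and 40.9% of genes had one under 0.05. It was 0.62 (adjusted p = 0.209) when replicate 2 of 3D was left out, and it passed where replicate 4 or 5 of 3D was left out instead (1.61, adjusted p = 0.0372, and 1.66, adjusted p = 0.0344, limma).

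TGF-β1 in 28D was also above C in 6 of 6 animals, as held for 9.09% of genes, with a log2 difference of 0.57 ± 0.47 (SE) and a 95% interval from -0.40 to 1.54. The exact permutation p was 0.00952, unadjusted, and 27.3% of genes had one under 0.05 there. The limma adjusted p was 0.506. The spread that limma pools for this gene includes the 3D animals, and without the animals of late RPLP0 the same difference had an adjusted p of 0.205. TGF-β1 in 28D against 14D was 0.40 ± 0.42 (SE, adjusted p = 0.622), in 14D against C 0.18 ± 0.47 (SE, adjusted p = 0.888) and in 14D against 3D 0.95 ± 0.47 (SE, adjusted p = 0.239). The last was 0.23 (adjusted p = 0.718, limma) when replicate 2 of 3D was left out.

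In 3D against C, where 4.55% of genes passed, the log2 difference was -0.78 ± 0.51 for TGF-β1, -0.22 ± 0.47 for SMAD-2 and -1.02 ± 0.57 for SMAD-3 (SE, limma adjusted p = 0.396, 0.831 and 0.300). The median over the 3 genes was -0.78, beside -0.77 over all 22. The TGF-β1 difference was -0.05 without the animals of late RPLP0, that of SMAD-2 turned to 0.06, and that of SMAD-3 was -0.85. In 14D against 3D, where 27.3% of genes passed, SMAD-3 was 1.02 ± 0.55 higher (SE, adjusted p = 0.275) and SMAD-2 0.29 ± 0.45 (SE, adjusted p = 0.743). In 28D against 3D, where 31.8% passed, they were 1.03 ± 0.55 (SE, adjusted p = 0.275) and 0.61 ± 0.45 (SE, adjusted p = 0.450). Without replicate 2 of 3D, SMAD-2 was 0.018 higher in 14D and 0.33 higher in 28D than in 3D (limma adjusted p = 0.995 and 0.718). Without both animals of late RPLP0, SMAD-3 was 0.69 and 0.70 higher in the same comparisons (limma adjusted p = 0.548 in each). The members' median was 0.95 beside 0.71 over all genes in 14D against 3D, and 1.03 beside 1.07 in 28D against 3D. Against C and against each other, SMAD-2 and SMAD-3 in 14D and 28D differed by between -0.00 and 0.39. The interval for SMAD-3 in 28D against C ran from -1.13 to 1.15, which spans a 2-fold difference in either direction.

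Replicate 5 of 3D was normalized in 2 ways. Its deposited ΔCt used an RPLP0 Ct of 27.1 for TGF-β1, but one of 28.5, equal to the mean of the other 3D animals, for SMAD-2 and SMAD-3. With its own RPLP0 Ct, SMAD-2 in this animal moved to -0.23, against 1.11 as deposited, and SMAD-3 to -1.51, against -0.17 as deposited. SMAD-2 was then the highest in replicate 4 of 3D, at -0.02, and SMAD-3 lay between -2.35 and -0.48 in the 5 animals of 3D. The difference of SMAD-3 in 3D against C became -1.29 ± 0.56 (SE, limma adjusted p = 0.141, unadjusted exact permutation p = 0.0397) and that of SMAD-2 -0.49 ± 0.42 (SE, adjusted p = 0.491). In 28D against 3D, SMAD-3 was then 1.30 ± 0.53 and SMAD-2 0.88 ± 0.40 higher (SE, adjusted p = 0.126 and 0.175). None of the 18 tests passed with these values either, and 5 of the 18 had an unadjusted limma p under 0.05, beside 24.2% of the 132 tests of the panel with the same reference.

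**Figure D2:**
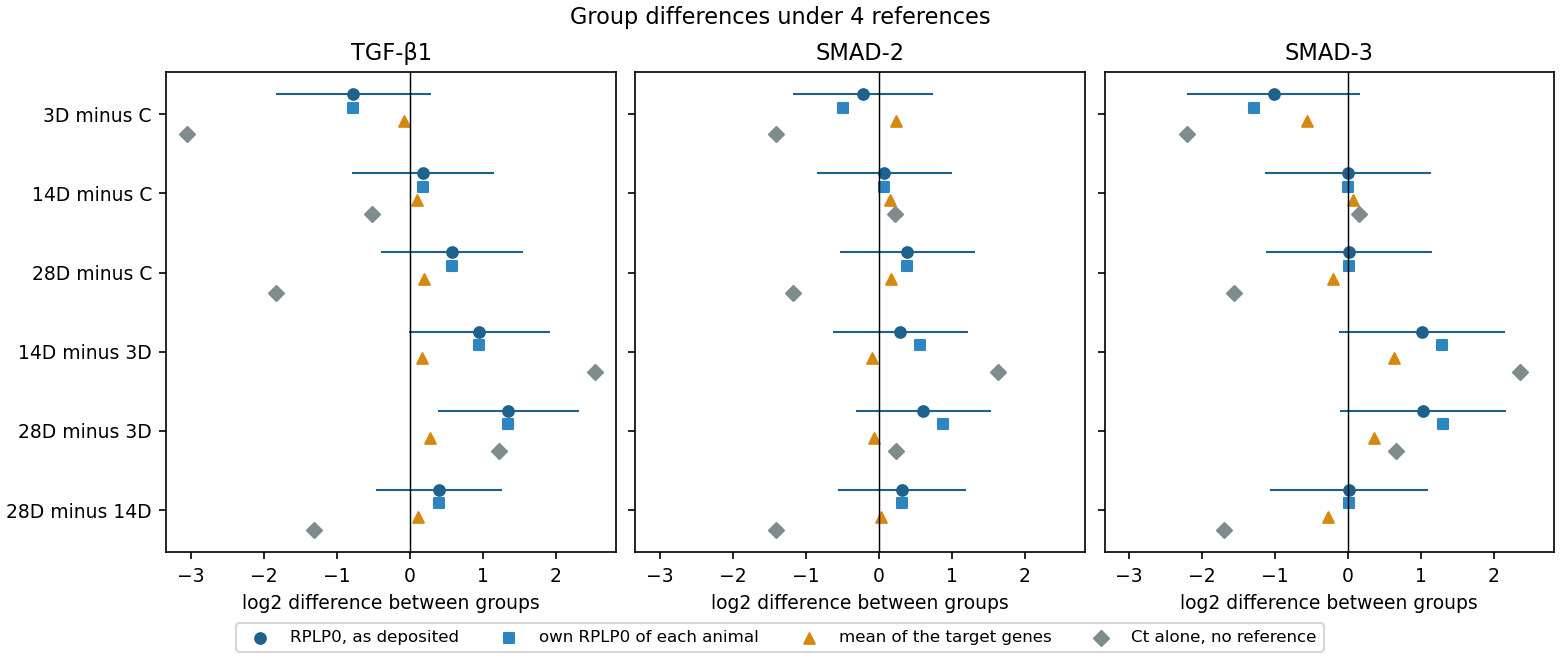
Log2 differences (x axis) of TGF-β1, SMAD-2 and SMAD-3 in the 6 pairs of groups under 4 references, with the 95% interval of the deposited RPLP0 normalization as a line. With the mean of the target genes as reference, TGF-β1 in 28D minus 3D is 0.27, beside 1.35 with RPLP0.

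The size of these differences depended on the reference. The mean Ct of the target genes, here and in the correlations below, was taken over the genes measured in each animal. It thus did not cover the same genes in all animals, and the part of the missing genes in these values was not tested. With the mean Ct of the target genes in place of RPLP0, TGF-β1 in 28D against 3D was 0.27 (adjusted p = 0.717) and SMAD-3 in 3D against C was -0.57 (adjusted p = 0.613). With the Ct alone, TGF-β1 in 28D against C was -1.84, a later Ct in 28D, where RPLP0 was later too.

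A difference of 2 Ct values in the same cDNA needs no reference gene. Each gene had its own assay, so a difference of 0 need not mean equal amounts of mRNA, and the groups are compared instead. The Ct of SMAD-3 minus that of SMAD-2 was 0.34, 0.80, 0.09, 0.59 and 1.05 cycles in the animals of 3D, and -0.13, -0.20, -0.60, 0.43 and -0.64 in those of C. SMAD-3 thus came later than SMAD-2 in 5 of 5 animals of 3D and in 1 of 5 of C, the animal of late RPLP0, and these groups overlapped through that animal. It also came later in 3 of 6 animals of 14D and in 5 of 6 of 28D. The means were 0.57 ± 0.38 in 3D and -0.23 ± 0.43 in C (SD, n = 5 each), a difference of 0.80 ± 0.35 cycles (SE). The exact permutation p was 0.0238, unadjusted, as 15.6% of the 231 gene pairs had one under 0.05, and the limma p adjusted over 1386 tests was 0.233. Without the animals of late RPLP0 the difference was 0.91 cycles (adjusted p = 0.242, limma). In 14D, where the values ran from -0.62 to 0.19, the mean was -0.15 ± 0.35 (SD, n = 6) and lay 0.72 ± 0.34 cycles (SE) below that of 3D (adjusted p = 0.256), with an unadjusted exact permutation p of 0.0108, as 30.3% of gene pairs had one under 0.05. In 28D it was 0.15 ± 0.53 (SD, n = 6), between -0.78 in replicate 4 and 0.76 in replicate 3, and its differences from the other groups were at most 0.43 cycles, with adjusted p-values (limma) from 0.561 to 0.680. The RPLP0 Ct assigned to replicate 5 of 3D does not enter this difference.

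**Figure D3:**
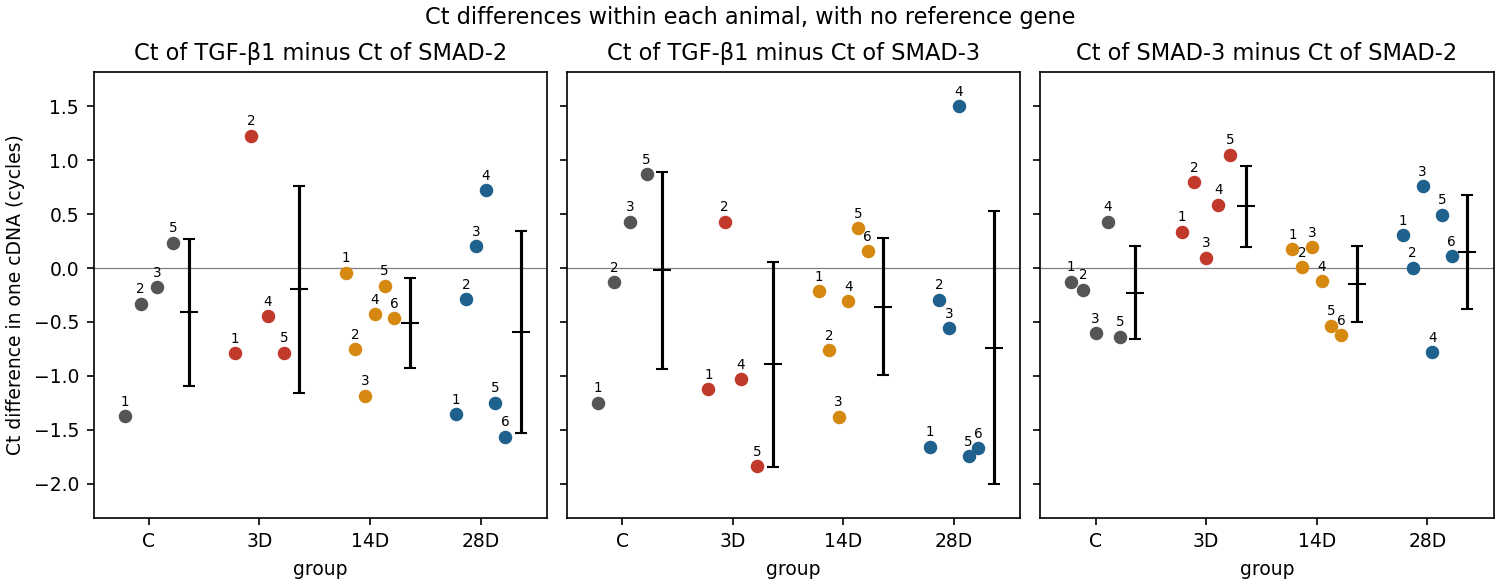
Ct difference in cycles (y axis) between TGF-β1, SMAD-2 and SMAD-3 in one cDNA, per animal and group, with replicate numbers and mean ± SD. The SMAD-3 minus SMAD-2 panel has all 5 animals of 3D above 0, from 0.09 to 1.05.

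TGF-β1 minus SMAD-2 was 0.21 ± 0.57 cycles (SE) higher in 3D than in C (adjusted p = 0.872) and turned to -0.26 without the animals of late RPLP0, since replicate 2 of 3D was at 1.23 while the other 3D animals were at -0.79, -0.45 and -0.79. TGF-β1 minus SMAD-3 was 0.87 ± 0.68 cycles (SE) lower in 3D than in C (adjusted p = 0.555). It was 1.31 cycles lower without the animals of late RPLP0 (adjusted p = 0.351, limma). In 28D it spread widely, at -1.66, -1.75 and -1.67 in replicates 1, 5 and 6, -0.29 and -0.56 in replicates 2 and 3, and 1.50 in replicate 4. In 28D against C it was 0.72 ± 0.62 cycles (SE) lower (adjusted p = 0.591). None of the 18 tests of these 3 Ct differences passed, against 1.8% of all 1386. Before adjustment, 18.3% of all tests had a limma p under 0.05, and 2 of the 18 did, SMAD-3 minus SMAD-2 in 3D against C and in 14D against 3D.

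SMAD-3 minus SMAD-2 also moved with the Ct of RPLP0 over the 22 animals, group means removed. Pearson's r was 0.64 (permutation p = 0.00235, 0.0302 adjusted over 231 gene pairs) and Spearman's rho 0.64 (permutation p = 0.00385, 0.0494 adjusted), a relation that 11.7% of gene pairs passed. Without replicate 2 of 3D and replicate 4 of C, r was 0.66. A later RPLP0 thus went with a later SMAD-3 relative to SMAD-2 within groups, and the RPLP0 Ct of 3D exceeded that of C by 0.92 cycles (p = 0.484 by exact permutation). The part of template amount in the SMAD-3 to SMAD-2 difference was not tested.

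SMAD-2 and SMAD-3 varied together from animal to animal. With group means removed, their log2 expression had a Pearson's r of 0.90 over 22 animals (permutation p = 1e-05, the smallest the permutations can give, 0.00099 adjusted over 231 gene pairs) and a Spearman's rho of 0.89 (permutation p = 1e-05, 0.00115 adjusted). It was the highest r of the 231 pairs, whose median was 0.37 and of which 26.8% passed. Both genes share RPLP0 in this measure, which alone gives a positive r. With the mean of the other target genes as reference the r of SMAD-2 and SMAD-3 was 0.93, again the highest, beside a median of 0.03 with 15.6% of pairs passing. With each animal's own RPLP0 it was 0.91, the second highest where 30.7% passed, and with late wells left out 0.88, the 4th highest. Without replicate 4 of 28D and replicate 2 of 3D, the animals farthest out, r was 0.85. Within 14D and within 28D r was 0.94 and 0.92 (exact permutation p = 0.00833 and 0.0111, both 0.169 after adjustment over 441 tests, n = 6 each), with a rho of 0.89 in each (exact permutation p = 0.0333).

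TGF-β1 followed the SMAD genes less closely. Its r was 0.44 with SMAD-2 (permutation p = 0.232, adjusted p = 0.373, rho 0.34, permutation p = 0.196) and 0.39 with SMAD-3 (permutation p = 0.101, adjusted p = 0.213, rho 0.38, permutation p = 0.114) over 20 animals, near the median pair. With wells past 35 left out, which drops replicate 2 of 3D alone, these were 0.16 and 0.15 over 19 animals. Without replicates 2 and 5 of 3D they were 0.06 and 0.11, so the relations rested mostly on replicate 2. Within 14D r was 0.61 with SMAD-2 and 0.62 with SMAD-3, and within 28D -0.61 and -0.44 (exact permutation p = 0.200, 0.182, 0.206 and 0.429, n = 6 each). The difference between 14D and 28D in these correlations was not tested. In the deposited values, replicate 5 of 3D had another RPLP0 Ct for TGF-β1 than for the SMAD genes. With each animal's own RPLP0, r over 20 animals was 0.33 with SMAD-2 and 0.28 with SMAD-3 (adjusted permutation p = 0.261 and 0.27), beside a median of 0.35. With the mean of the other target genes as reference it was 0.17 and 0.20 (adjusted permutation p = 0.496 and 0.419), beside a median of 0.03. On Ct alone, which carries the amount of template, all 3 pairs had an r between 0.89 and 0.99, beside a median of 0.86 over the panel, where 87% of pairs passed.

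**Figure D4:**
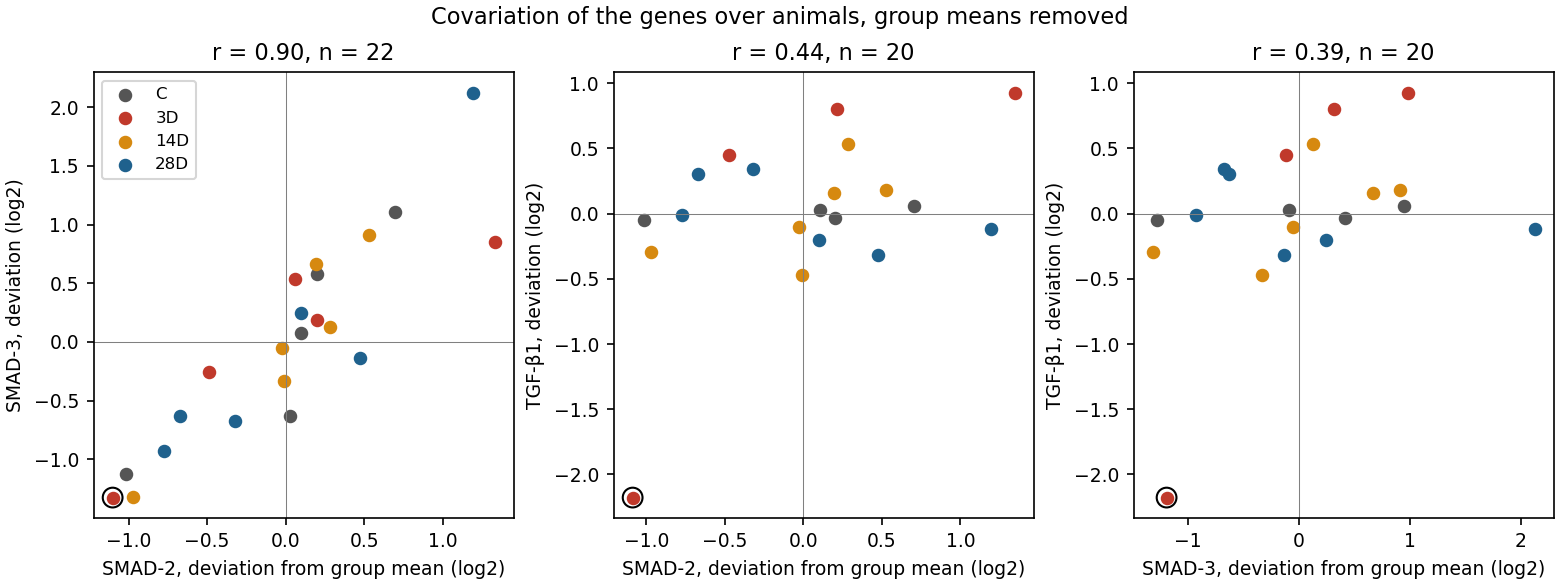
Deviations of log2 expression from the group mean for SMAD-3 against SMAD-2, TGF-β1 against SMAD-2 and TGF-β1 against SMAD-3, one point per animal, coloured by group, with replicate 2 of 3D ringed. The SMAD pair lies along a line (r = 0.90), and without replicates 2 and 5 of 3D the r of TGF-β1 is 0.06 with SMAD-2 and 0.11 with SMAD-3.

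The SD within groups of the Ct difference gives likeness with no reference. It was 0.431 cycles for SMAD-3 and SMAD-2, the 4th smallest of 231 pairs, 0.769 for TGF-β1 and SMAD-2 and 0.976 for TGF-β1 and SMAD-3, beside a median of 1.04. Outside the 3 genes, those nearest to TGF-β1 by this measure were TIMP-2, an inhibitor of matrix metalloproteinases, at 0.428, MKX, a tendon transcription factor, at 0.470 and MMP-2, a gelatinase, at 0.578, over 20 animals. Those nearest to SMAD-2 were MKX at 0.523 over 22 animals, TIMP-2 at 0.527 over 21 and COL1A1, the main chain of type I collagen, at 0.546 over 20. SMAD-3 was nearest to COL1A1 at 0.477 over 20 animals, then to MKX at 0.742 over 22 and TIMP-2 at 0.787 over 21. SMAD-2 was closer to SMAD-3 than to any of these, and TGF-β1 was closer to TIMP-2 than to either SMAD gene.

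Of 11 other genes of the pathway on the panel, in 66 tests, 9 passed, beside 14 of the 132 tests, or 10.6%, over the whole panel. Among transcription factors named downstream of TGF-β in tendon (SCX, MKX and ERG1, the assay paired with Egr1 in the deposited table), MKX rose in 14D and 28D against 3D, by 1.50 and 1.99, and no other passed. Among matrix genes that TGF-β induces in fibroblasts (COL1A1, COL3A1, FN, TNC and TIMP-1), COL1A1 fell by 2.74 in 3D against C (limma adjusted p = 0.0117) and rose by 3.39 in 14D and 1.999 in 28D against 3D. FN, fibronectin, rose by 1.77 in 14D and 1.63 in 28D against 3D. The other genes of this list did not pass, and not all of them rose. Against 3D, 3 of the 5 genes were higher in 14D and 4 in 28D. COL3A1 was at -0.51 and TIMP-1 at -1.69 in 14D against 3D, and TIMP-1 at -0.95 in 28D against 3D. Among proteoglycans that bind TGF-β (DCN, BGN and FMOD), DCN, decorin, rose by 1.91 in 14D and 2.32 in 28D against 3D. These are log2 differences, and all 9 were in comparisons that include 3D, as were all 14 passing tests of the panel. The count fell to 5 without the animals of late RPLP0 and to 2 with the Ct alone.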

How the data were processed

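Per the labels and the methods, total RNA of CT was reverse transcribed and amplified with TaqMan assays. The authors deposited a Ct table, here treated as a score in cycles with no normalization, a mean over technical duplicates according to the methods. In the deposited ΔCt table, a log2 scale with reversed sign, the authors subtracted the Ct of RPLP0. The deposited fold change is the ratio 2 to the power of minus ΔΔCt against the mean of C. Aligners and genome builds do not apply. The methods state more animals than the 22 analysed here.

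Groups and replicate numbers came from the labels. The members and lists were chosen with earlier results of these data known. Values that matched the mean of their group mates within 1e-06 (22 values) and blanks (2) were left out, which left 460 of 484. In replicate 1 of C the Ct of DCN equalled that of BGN. This Ct was also left out of all measures computed from the Ct table, while its deposited ΔCt was kept. The RPLP0 Ct was taken as Ct minus ΔCt, and in 6 animals this gave more than 1 value. Gene symbols (22 of 22) were found in RefSeq, GRCr8. The named genes were the 3 members, for each the 3 panel genes with the smallest SD within groups of the Ct difference over at least 15 animals, and pathway genes that passed.

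The values of the single animals entered limma 3.58.1 (R 4.3.3) in one model with 4 group means and no covariates. Its p-values were Benjamini-Hochberg adjusted over 132 tests, or over 1386 for Ct differences of all 231 gene pairs. Exact permutation tests were two-sided. Correlations used 100000 permutations within groups (scipy 1.17.1, numpy 2.4.6). The code was tested on simulated panels. Counting depth does not apply, and the number of animals, 4 to 6 for a gene in a group, sets the precision. Alternatives were other references, all deposited values, late wells, linear values, other tests, sample weights, a robust prior, only the groups of a pair, the replicate block and leaving out each animal. Each animal's own RPLP0 Ct, leaving out the animals of late RPLP0, and late wells left out of the correlations were added after seeing the data.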

Additional observations from a re-analysis of the deposited data

Results flagged for a closer look

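In groups of 4 to 10 animals, values whose gap to the next animal exceeded Dixon's 95% limit were listed. Of 28 groups tested, 4 had such a value, where chance alone flags about 1 in 20. TGF-β1 in replicate 2 of 3D had a log2 expression of -2.95, with the next animal at -0.33, and the same animal had TGF-β1 minus SMAD-2 at 1.23 cycles, with the next at -0.45. SMAD-2 in replicate 3 of 14D was at -0.90, with the next animal at 0.05. The RPLP0 Ct of replicate 4 of C was 30.6, with the next animal at 26.9.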

How the results depend on the processing

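The SMAD-2 and SMAD-3 correlation passed under all alternatives run, between 0.88 and 0.92 with an animal left out. Leaving out single animals aside, 266 values of the log2 differences kept their direction and side of the threshold, 17 turned in sign and 5 passed that did not pass as reported. For the Ct differences 112 kept both and 14 turned in sign. Other tests, sample weights, the robust prior and only the groups of a pair left the value itself unchanged, so these settings could show no turn in sign. Of the 17 turns, 8 came with the Ct alone and 6 with the mean of all target genes. Of the fits that left out 1 animal, 17 turned the sign of a log2 difference and 2 gave a pass that was not there with all animals, and 16 turned the sign of a Ct difference. The cause of these changes was not tested. Of the 18 log2 differences only TGF-β1 in 28D against 3D passed anywhere. It passed with an animal of 3D left out and with all deposited ΔCt values (1.27, adjusted p = 0.0463, limma). It also passed with the deposited fold change table on the log2 scale (1.27, adjusted p = 0.0358, limma) and with linear values (0.75, adjusted p = 0.0484, limma). After the methods, it passed by least squares (adjusted p = 0.0452) and by Dunn's procedure (adjusted p = 0.0193). Both gave 1.35, with Bonferroni adjustment over 6 pairs. The value of 0.75 is a difference of linear relative expression and is not on the log2 scale of the others. With the Ct alone, TGF-β1 turned to -0.52 in 14D against C, -1.84 in 28D against C and -1.32 in 28D against 14D. SMAD-2 turned to -1.18 in 28D against C and -1.41 in 28D against 14D, and SMAD-3 to 0.14, -1.56 and -1.70 in 14D against C, 28D against C and 28D against 14D. The TGF-β1 correlations passed there at 0.92 with SMAD-2 and 0.89 with SMAD-3. With all target genes averaged as reference, SMAD-2 turned to 0.23 in 3D against C, -0.091 in 14D against 3D and -0.071 in 28D against 3D, and SMAD-3 to 0.066, -0.21 and -0.28 in 14D against C, 28D against C and 28D against 14D. With a Ct above 35 as missing, SMAD-2 in 3D against C turned to 0.056, and TGF-β1 minus SMAD-2 to -0.26 in 3D against C, 0.17 in 14D against 3D and 0.084 in 28D against 3D. Without the animals of late RPLP0 these were 0.062, -0.26, 0.17 and 0.084, and SMAD-3 in 28D against C was -0.15. With all values of the deposited Ct table kept, TGF-β1 minus SMAD-2 turned to 0.74 in 14D against C and 0.66 in 28D against C, and TGF-β1 minus SMAD-3 to 0.84 in 3D against C, 0.66 in 14D against C, 0.28 in 28D against C, -0.18 in 14D against 3D and -0.56 in 28D against 3D, the last also to -0.24 with all deposited ΔCt values.

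Leaving out each animal in turn gave 0.62 to 1.66 for TGF-β1 in 28D against 3D and 0.23 to 1.26 in 14D against 3D, and for SMAD-2 0.018 to 0.63 in 14D against 3D, 0.33 to 0.94 in 28D against 3D, -0.55 to 0.056 in 3D against C and -0.18 to 0.27 in 14D against C. SMAD-3 ranged from -0.28 to 0.27 in 14D against C, -0.41 to 0.29 in 28D against C and -0.41 to 0.20 in 28D against 14D. TGF-β1 minus SMAD-2 ranged from -0.26 to 0.43 in 3D against C, -0.42 to 0.12 in 14D against C, -0.50 to 0.037 in 28D against C, -0.51 to 0.17 in 14D against 3D, -0.65 to 0.084 in 28D against 3D and -0.35 to 0.11 in 28D against 14D. TGF-β1 minus SMAD-3 in 28D against 3D ranged from -0.29 to 0.59, and SMAD-3 minus SMAD-2 in 14D against C from -0.025 to 0.24. The RPLP0 Ct ranged from -0.091 to 1.77 in 3D against C, -0.58 to 0.69 in 14D against C, 1.29 to 2.41 in 28D against C and 1.48 to 2.15 in 28D against 14D, and without both animals of late RPLP0 it was 0.69 in 14D against C and 2.41 in 28D against C (exact permutation p = 0.314 and 0.0143). The 9 passing tests of pathway genes were 2 with the Ct alone, 5 with the mean of all target genes, 2 with one RPLP0 Ct per animal, 14 with the deposited fold change table, 1 with linear values, 5 without the animals of late RPLP0, 2 with only the groups of the pair, and 3 to 11 with an animal left out. In replicate 5 of 3D the most frequent RPLP0 Ct was 28.5, the mean of the other 3D animals, against its own of 27.1. The setting with the most frequent RPLP0 Ct thus gave that animal a reference that was not its own. Replicate numbers did not pair the animals, since 9 of 31 same-numbered pairs correlated above 0.1 and 7 of 62 best matches had the same number. With the replicate block TGF-β1 in 28D against 3D was 1.35 (adjusted p = 0.0935, limma), and no call on the 3 genes changed. The count of pathway tests that passed was 7 under the block.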

Other observations

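With the mean of the other target genes as reference, TGF-β1 and SMAD-3 had an r of 0.97 and a rho of 1.00 over the 6 animals of 14D (exact permutation p = 0.00139 for r and 0.00278 for rho) and an r of -0.32 and a rho of -0.37 over the 6 animals of 28D (exact permutation p = 0.507 and 0.497). Adjusted over 441 tests, the p of r was 0.122 in 14D and 0.743 in 28D, and the difference between the groups was not tested. With group means removed, TGF-β1 minus SMAD-3 and the RPLP0 Ct had an r of -0.22 over 20 animals (permutation p = 0.396, 0.668 adjusted over 231 gene pairs, rho -0.29, permutation p = 0.231). Without replicate 2 of 3D and replicate 3 of 14D, the animals farthest from the median of the RPLP0 Ct with group means removed, r was -0.78 (permutation p = 0.0032, unadjusted) and rho -0.57 (permutation p = 0.0267, unadjusted), so that the value turned on these animals.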
